A study of Mus musculus with 4 samples.

Results

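The guanylin system was followed in mouse colon tumours through its 3 genes, Guca2a and Guca2b, which encode the peptide ligands guanylin and uroguanylin, and Gucy2c, which encodes their receptor, guanylate cyclase C. They were taken by symbol from a table of 14979 genes, and all 3 were among the 14331 genes with enough tags to be tested. The tumours came from 4 AOM/DSS mice, which had been given azoxymethane, a carcinogen, and dextran sulfate sodium, which inflames the colon. Of these mice, 2 had been treated with antibody to MAdCAM-1, a vessel adhesion molecule through which lymphocytes enter the gut (libraries MAdCAM1 1 and MAdCAM1 2), and 2 with a control IgG antibody (IgG 1 and IgG 2). Each mouse gave 1 library made by cap analysis of gene expression (CAGE), a method that counts RNAs by tags read at their capped 5′ ends. The mouse strain, age, sex and antibody doses are not given in the sources used here, and both groups carried AOM/DSS tumours, so no level in healthy colon is given here. Levels are in CPM, tag counts relative to the TMM-scaled size of a library, and every log2 fold change sets MAdCAM1 over IgG. A CAGE tag marks the start of an RNA, so tags were compared between genes without division by transcript length.

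Guanylin and uroguanylin are released into the gut lumen and bind guanylate cyclase C on the apical membrane of epithelial cells, where the receptor makes cyclic GMP. Cyclic GMP acts through its kinase, and by slowing the breakdown of cyclic AMP, to open the chloride and bicarbonate channel CFTR and to restrain sodium uptake, which draws fluid into the lumen. Guanylin is the main ligand of the colon, where goblet cells and surface colonocytes make it, whereas uroguanylin is made mainly in the upper small intestine. Colorectal tumours are known for losing guanylin while they keep the receptor.

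The ligand genes are neighbours on chromosome 4 in GRCm39, the build of the counts. Guca2a (ENSMUSG00000023247) spans 119494890 to 119496668 on the plus strand, and Guca2b (ENSMUSG00000032978) spans 119513802 to 119516151 on the minus strand. They point towards each other across 17133 bases that hold 0 annotated genes. GENCODE gives Guca2a 3 transcripts from 1 start site and Guca2b 2 transcripts from 2 start sites. The receptor gene Gucy2c (ENSMUSG00000042638) lies on chromosome 6, at 136674282 to 136758827 on the minus strand, with 2 transcripts from 1 start site. A long non-coding RNA gene, Gm35761, overlaps the start of Guca2b on the other strand and is not analysed here. No other gene of the table had the same 4 tag counts as any of the 3 genes.

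CAGE reads the promoter end of each RNA, so the promoters of the neighbouring ligand genes are shown side by side. Both ligand genes were highest in MAdCAM1 1 and lowest in IgG 2, and only Guca2a separated the groups. Whether the promoter sequences bear on these levels was not tested. RefSeq promoter sequences (GRCm38.p6) were at hand for Guca2a and Guca2b, and the stretch from 225 to 26 bases before the annotated start is printed for each, from chr4:119637507-119637706 on the plus strand and from chr4:119658971-119659170 on the minus strand.
Guca2a: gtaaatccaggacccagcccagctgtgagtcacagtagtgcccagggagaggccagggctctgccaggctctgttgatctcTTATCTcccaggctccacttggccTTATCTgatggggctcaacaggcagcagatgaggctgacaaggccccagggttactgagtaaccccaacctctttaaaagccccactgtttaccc
Guca2b: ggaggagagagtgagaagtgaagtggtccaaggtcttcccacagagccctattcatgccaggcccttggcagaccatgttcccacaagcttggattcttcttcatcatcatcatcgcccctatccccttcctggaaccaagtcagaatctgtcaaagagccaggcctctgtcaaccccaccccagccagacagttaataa
Capitals mark matches to AGATAA, a motif bound by GATA factors, which reads here as its reverse complement TTATCT. All motifs were searched on both strands. In the window of 250 bases before to 50 after the start, the Guca2a promoter held AGATAA at 2 places, both within the printed stretch, and the Guca2b promoter held none. AGATAA was found in 11.2% of 32851 mouse promoters of that length. The core TATAA of the TATA box began at the annotated start of Guca2b and was not in the Guca2a window, and it was found in 24.9% of promoters. TTTAT, the core read by CDX factors, and CAAAGTCCA, read by HNF4 factors, were in neither window and in 40.0% and 0.475% of promoters. The letter matches overlap no other motif searched. They describe sequence and do not show binding.

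The libraries held between 14850923 and 16891234 tags, so that 1 tag was worth 0.0569 to 0.0700 CPM and each of the 3 genes rested on 313 tags or more per library. Epithelial and colonic identity was present throughout, with the adhesion protein gene Epcam at 3185 and 2811 CPM in MAdCAM1 and 1945 and 2049 CPM in IgG tumours, and the distal colon factor gene Hoxb13 at 186 and 130 against 107 and 173 CPM. The libraries differed in other tissue. The summed level of 7 smooth muscle genes was 140 and 2014 CPM in MAdCAM1 1 and 2, against 1791 and 142 CPM in IgG 1 and 2, and that of 7 macrophage genes was 149 and 545 against 159 and 538 CPM. These sums overlapped between the groups, and their part in the results was not tested. Bulk tumours cannot tell fewer cells of a type from less RNA per cell.

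Guanylin and its receptor were higher in both tumours of antibody-treated mice than in both tumours of IgG mice, whereas uroguanylin overlapped between the groups. Among the 3 genes, 2 therefore separated the groups upwards, which 19.7% of all tested genes did, while 18.7% separated them downwards. None of the 3 passed edgeR's quasi-likelihood test over all genes, which called 0 of 14331 genes (0%) in either direction. With no adjustment, 730 genes were higher at p under 0.05 (5.09%), Gucy2c but neither ligand among them, and 261 were lower (1.82%). Calls by the exact test of edgeR numbered 152 higher (1.06%) and 9 lower (0.0628%), and those by DESeq2 219 higher (1.53%) and 20 lower (0.14%). These calls held none of the 3 genes, and limma-voom called 0 (0%). Guca2a and Gucy2c differed by at least 2-fold without overlap, as did 4.05% of all tested genes on the higher side.

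Guca2a had 5981 and 2861 tags in MAdCAM1 1 and 2, against 2329 and 726 tags in IgG 1 and 2. In CPM these were 419 and 185 in MAdCAM1 tumours and 133 and 44.9 in IgG tumours. The groups did not overlap, but the lower MAdCAM1 library was only 1.40 times the higher IgG library, and libraries of the same group differed by 2.26 times (MAdCAM1) and 2.95 times (IgG). Mean levels were 302 ± 165 CPM in MAdCAM1 and 88.7 ± 62.0 CPM in IgG (SD, n = 2 each), a log2 fold change of 1.77 (SE 0.70; edgeR quasi-likelihood adjusted p = 0.731). Guca2a ranked number 397 and number 1046 among the 14979 genes in MAdCAM1 1 and 2, against number 1459 and number 4663 in IgG 1 and 2. The log2 fold change was 1.06 without MAdCAM1 1 and 2.73 without IgG 1.

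Guca2b, the other ligand, was much lower than Guca2a in every library. It had 627 and 457 tags in MAdCAM1 1 and 2, against 628 and 313 tags in IgG 1 and 2, or 43.9 and 29.6 CPM against 35.7 and 19.4 CPM. MAdCAM1 2 lay between the 2 IgG libraries, so the groups overlapped. Means were 36.7 ± 10.1 CPM in MAdCAM1 and 27.6 ± 11.6 CPM in IgG (SD, n = 2 each), with a log2 fold change of 0.41 (SE 0.39; edgeR quasi-likelihood adjusted p = 0.874). Without MAdCAM1 1 it was 0.10, without MAdCAM1 2 0.67, without IgG 1 0.91 and without IgG 2 0.03.

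Gucy2c, the receptor, had 1280 and 1382 tags in MAdCAM1 1 and 2, against 789 and 325 tags in IgG 1 and 2. Its levels of 89.6 and 89.5 CPM in the MAdCAM1 tumours were nearly the same, while the IgG tumours stood at 44.9 and 20.1 CPM and differed from each other by 2.23 times. The lower MAdCAM1 library was 1.99 times the higher IgG library. Mean levels were 89.6 ± 0.10 CPM in MAdCAM1 and 32.5 ± 17.5 CPM in IgG (SD, n = 2 each), a log2 fold change of 1.46 (SE 0.42; edgeR quasi-likelihood adjusted p = 0.691). The smallest adjusted p that any of the 4 tools gave for Gucy2c was 0.0613, by DESeq2, and for Guca2a 0.140, by the same tool. Without IgG 1 the log2 fold change of Gucy2c was 2.14, and without IgG 2 it was 0.99.

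**Figure D1:**
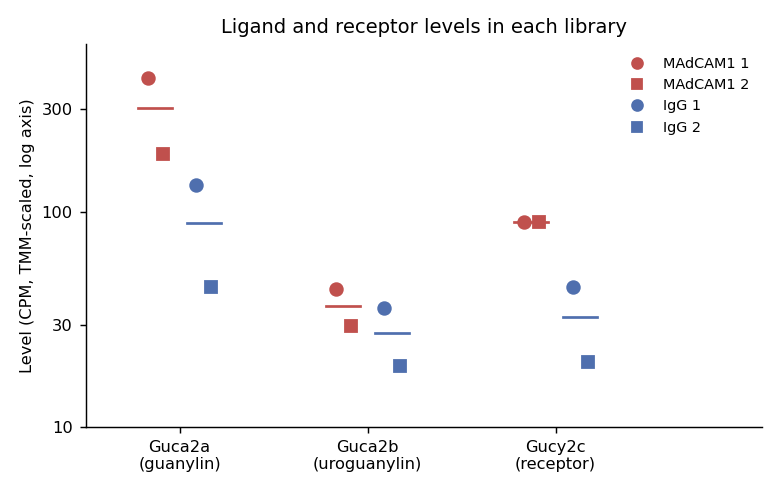
Level of each gene (log axis, CPM scaled by TMM) in the 4 libraries; red points are MAdCAM1 and blue points IgG libraries, circles replicate 1 and squares replicate 2, and horizontal lines are group means. Guca2a and Gucy2c lie higher in both MAdCAM1 libraries, at 185 CPM or more against 133 CPM or less and at about 89.5 against 44.9 CPM or less, while Guca2b overlaps between 19.4 and 43.9 CPM.

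The ligands were set against the receptor within each library, which needs no scaling between libraries. Guca2a gave 4.67 and 2.07 tags per Gucy2c tag in MAdCAM1 1 and 2, against 2.95 and 2.23 in IgG 1 and 2. The ratio was highest in MAdCAM1 1 and lowest in MAdCAM1 2, so it did not separate the groups. The difference of mean log2 ratios, MAdCAM1 minus IgG, was 0.28 (means 1.64 ± 0.83 and 1.36 ± 0.28, SD, n = 2 each; two-sided exact permutation p = 1.0), and it changed sign to −0.31 without MAdCAM1 1. Guca2a tags outnumbered Gucy2c tags in all 4 tumours, by 2.07 to 4.67 times.

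Uroguanylin was lower relative to the receptor in the MAdCAM1 tumours. Guca2b gave 0.490 and 0.331 tags per Gucy2c tag in MAdCAM1 1 and 2, against 0.796 and 0.963 in IgG 1 and 2, without overlap. The log2 ratio averaged −1.31 ± 0.40 in MAdCAM1 and −0.19 ± 0.19 in IgG (SD, n = 2 each), a difference of −1.12. The two-sided exact permutation p was 0.333, the smallest that this permutation test can give for 2 against 2 libraries, so it cannot take such a difference past 0.05.

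The balance between the ligands differed in the same way. Guca2a gave 9.54 and 6.26 tags per Guca2b tag in MAdCAM1 1 and 2, against 3.71 and 2.32 in IgG 1 and 2, again without overlap. The difference of mean log2 ratios was 1.40 (2.95 ± 0.43 in MAdCAM1 and 1.55 ± 0.48 in IgG, SD, n = 2 each; two-sided exact permutation p = 0.333, the smallest possible). Of all ligand tags, Guca2a made up 90.5% and 86.2% in the MAdCAM1 libraries and 78.8% and 69.9% in the IgG libraries. The 95% Wilson intervals were 89.8 to 91.2%, 85.0 to 87.4%, 77.3 to 80.2% and 67.0 to 72.6% in that order, and they cover counting error only. These 3 ratios share their genes and are not independent, and adjusting over them leaves no p under 0.333. Both ligands together gave 5.16 and 2.40 tags per Gucy2c tag in MAdCAM1 1 and 2, against 3.75 and 3.20 in IgG 1 and 2.

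**Figure D2:**
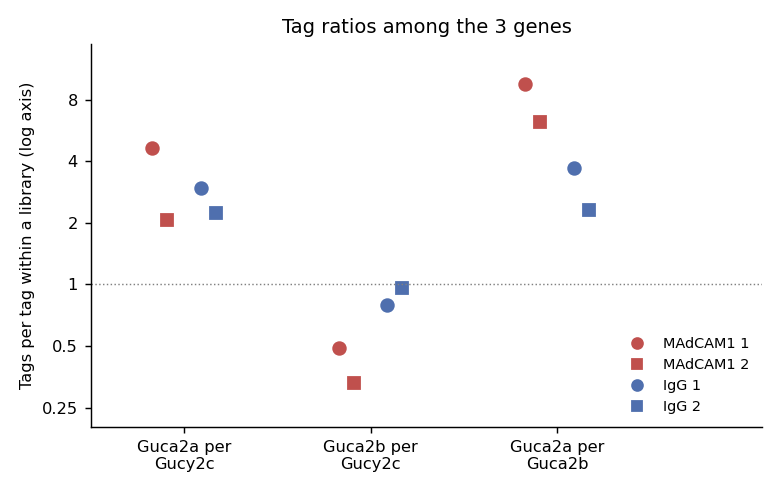
Tags of the first gene per tag of the second within each library (log axis), for guanylin over receptor, uroguanylin over receptor and guanylin over uroguanylin; red is MAdCAM1, blue is IgG, circles are replicate 1 and squares replicate 2, and the dotted line marks equal tags. Uroguanylin per receptor is at 0.490 or less in MAdCAM1 and 0.796 or more in IgG, and guanylin per uroguanylin at 6.26 or more against 3.71 or less, while guanylin per receptor overlaps.

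Most general epithelial, colonocyte, goblet and enteroendocrine marker genes were also higher in both MAdCAM1 libraries, while stem and tuft cell genes were mostly not. The summed level of 12 general epithelial genes, such as Epcam and the keratin genes Krt8 and Krt19, was 13198 and 11576 CPM in MAdCAM1, against 8046 and 6914 CPM in IgG tumours, and 11 of the 12 were higher in both MAdCAM1 libraries, as were 19.7% of all tested genes. The sum of 18 colonocyte genes was 3411 and 3751 CPM against 1639 and 998 CPM (14 of 17 tested genes higher in both, 0 lower in both, median log2 fold change 1.51). The sum of 15 goblet cell genes, with the mucin gene Muc2 and the secreted peptide gene Tff3 among them, was 10747 and 7598 CPM against 3214 and 1287 CPM (10 of 15 higher in both, 0 lower in both, median 1.39, or 2.52 without IgG 1 and 0.79 without IgG 2). The median over all tested genes was near 0. No member of these 3 lists was called by the quasi-likelihood test, although 7 general epithelial, 12 colonocyte and 7 goblet genes had an unadjusted p under 0.05. Of all tested genes, 5.09% were higher and 1.82% lower at that limit. The exact test called 3, 7 and 4 list members in that order of lists, and DESeq2 5, 10 and 5, against 1.06% and 1.53% of all tested genes called higher by these tools. How much of the levels of the 3 genes goes with these cells was not tested, so the genes are also given per marker tag.

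The other marker lists are set against the same 19.7% higher and 18.7% lower of all tested genes. Of 8 enteroendocrine genes, 6 were higher in both MAdCAM1 libraries and 0 lower, with a median log2 fold change of 2.77 (4.42 without IgG 1), and the gut hormone gene Pyy stood at 95.6 and 105 CPM in MAdCAM1, against 14.9 and 4.70 CPM in IgG tumours. Of 9 stem cell genes, 0 were higher in both and 1 lower, with a median of −0.27. That median was −0.47 without MAdCAM1 1, 0.017 without MAdCAM1 2 and −0.086 without IgG 1. The tuft cell genes Dclk1, Alox5ap, Hpgds and Avil all overlapped between the groups, at log2 fold changes of 0.90, 0.12, −0.67 and −1.21. A further tuft entry, Il25, had been matched through an older symbol to another gene, Mydgf, and is left out here. Outside the epithelium, 4 of 8 neutrophil genes were lower in both MAdCAM1 libraries and 0 higher, with a median of −0.99 (−1.73 without MAdCAM1 2 and −0.60 without MAdCAM1 1). Their summed level overlapped, however, at 208 and 753 CPM in MAdCAM1 1 and 2, against 315 and 588 CPM in IgG 1 and 2. So did the abundant S100a8 and S100a9, at log2 fold changes of −0.03 and 0.40. The median of 6 B and plasma cell genes was 1.98 but −0.87 without MAdCAM1 2, in which the immunoglobulin joining chain gene Jchain stood highest (42.7 and 449.6 CPM in MAdCAM1 1 and 2, against 8.14 and 35.4 CPM in IgG 1 and 2). The part of these cells in the levels of the 3 genes was not tested.

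Per 1000 general epithelial tags, Gucy2c still separated the groups, with 6.79 and 7.73 in MAdCAM1 1 and 2, against 5.58 and 2.91 in IgG 1 and 2. Guca2a gave 31.7 and 16.0 against 16.5 and 6.49, so that MAdCAM1 2 and IgG 1 were level and the groups overlapped. Guca2b overlapped as well, at 3.33 and 2.56 against 4.44 and 2.80. The differences in mean log2 were 0.85 for Gucy2c, 1.12 for Guca2a and −0.27 for Guca2b.

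Relative to goblet cell tags none of the 3 genes was higher in both MAdCAM1 libraries. Guca2a overlapped at 39.0 and 24.4 per 1000 goblet tags in MAdCAM1 1 and 2, against 41.2 and 34.9 in IgG 1 and 2. Guca2b was lower in both MAdCAM1 libraries, at 4.09 and 3.89 against 11.1 and 15.0, and so was Gucy2c, at 8.34 and 11.8 against 13.97 and 15.6. Per 1000 colonocyte tags Gucy2c was close to even across all 4 tumours, at 26.3 and 23.9 against 27.4 and 20.1, Guca2a overlapped at 123 and 49.4 against 80.9 and 45.0, and Guca2b was lower in both MAdCAM1 libraries, at 12.9 and 7.89 against 21.8 and 19.4. These are values without a test, and the sums are carried largely by abundant genes such as Spink4 and Muc2 in the goblet list and Lypd8 in the colonocyte list.

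**Figure D3:**
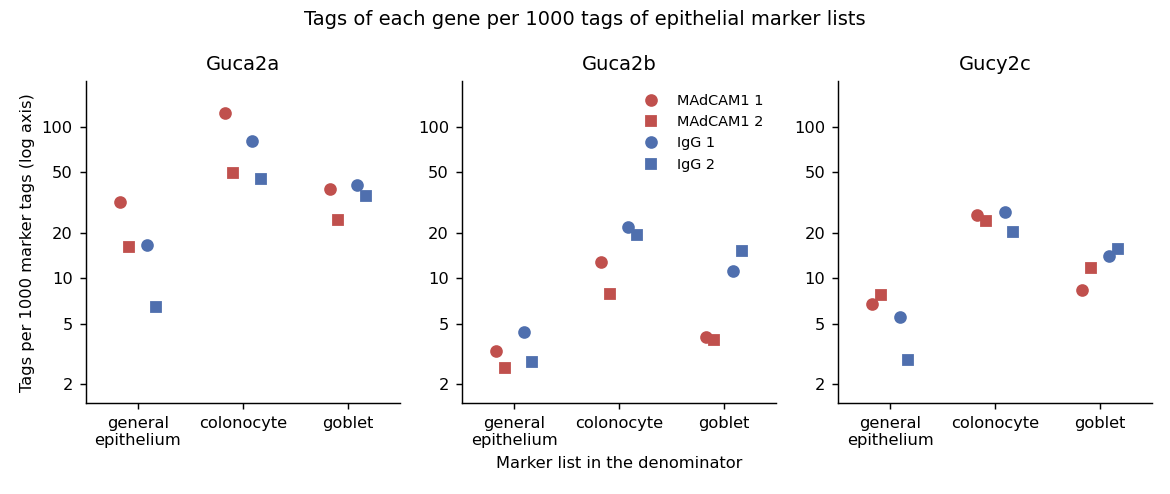
Tags of each gene per 1000 tags summed over general epithelial, colonocyte or goblet marker genes (log axis), 1 panel per gene; red is MAdCAM1, blue is IgG, circles are replicate 1 and squares replicate 2. Gucy2c is nearly level per colonocyte tag, from 20.1 to 27.4, and Guca2b is lower in both MAdCAM1 libraries per colonocyte and per goblet tag.

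Other guanylate cyclases were scarce beside the receptor. Of 13 genes for other cyclases and natriuretic peptides, 4 were in the table and none of these was called by any of the 4 tools or had an unadjusted quasi-likelihood p under 0.05. Npr1 and Npr2, the receptors of natriuretic peptides, stood at 6.79 and 1.81 CPM and at 0.910 and 5.63 CPM in MAdCAM1, against 4.50 and 3.59 CPM and 2.22 and 2.85 CPM in IgG tumours. Gucy1b1, a subunit of the nitric oxide sensitive cyclase, stood at 0.770 and 5.37 against 2.22 and 2.23 CPM. Its partner subunit Gucy1a2 was the member of this list that did not overlap, at 4.27 and 1.68 against 1.14 and 1.42 CPM (log2 fold change 1.21, SE 0.61; edgeR adjusted p = 0.760). Of all tested genes, 19.7% were likewise higher in both MAdCAM1 libraries and 18.7% were lower in both.

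Among the cyclic GMP kinase genes and their targets, 5 of 7 were tested, 2 were higher in both MAdCAM1 libraries and 0 lower in both, against 19.7% and 18.7% of all tested genes. Prkg2, the membrane-bound kinase through which cyclic GMP acts on CFTR in the gut, overlapped at 58.0 and 26.7 CPM in MAdCAM1 and 56.6 and 57.6 CPM in IgG tumours, with MAdCAM1 2 below the other 3 libraries. Cftr itself was higher in both, at 28.3 and 15.7 against 15.2 and 4.08 CPM (log2 fold change 1.19, SE 0.72; edgeR adjusted p = 0.804), with MAdCAM1 2 close to IgG 1. Vasp, an actin regulator that the kinases phosphorylate, stood at 386 and 354 against 261 and 244 CPM (log2 fold change 0.55, SE 0.15; edgeR adjusted p = 0.691).

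Of 10 tested genes in the list for cyclic GMP breakdown and export, 3 were higher in both MAdCAM1 libraries and 4 lower, where 19.7% and 18.7% of all tested genes were. The median, 0.10 on the log2 scale, became −0.07 without MAdCAM1 1, −0.13 without MAdCAM1 2, 0.27 without IgG 1, −0.06 without IgG 2 and −0.0036 with scaling by library size alone. Pde9a, a phosphodiesterase with high affinity for cyclic GMP, stood at 187 and 180 CPM in MAdCAM1, against 102 and 91.1 CPM in IgG tumours (log2 fold change 0.93, SE 0.15). Its adjusted p was 0.640 by edgeR's quasi-likelihood test, 0.0769 by its exact test and 0.000293 by DESeq2, which made no other call in this list. Pde2a, which cyclic GMP stimulates, stood at 33.2 and 28.2 against 17.6 and 5.69 CPM, and Pde3a, which cyclic GMP inhibits, at 21.0 and 25.4 against 13.8 and 4.95 CPM. Pde3b, of the same class as Pde3a, was lower in both MAdCAM1 libraries (11.3 and 13.5 against 16.8 and 27.7 CPM), and so were the nucleotide exporters Abcc4 (32.1 and 27.1 against 41.8 and 39.3 CPM) and Abcc5 (13.6 and 12.9 against 21.9 and 19.7 CPM). The list's other lower member, Pde6d, is not a catalytic phosphodiesterase subunit, and stood at 39.8 and 38.5 against 42.8 and 46.8 CPM. Pde5a, the widely expressed cyclic GMP phosphodiesterase, was nearly level at 56.8 and 63.8 against 59.2 and 61.6 CPM (log2 fold change −0.0018, SE 0.14; edgeR adjusted p = 0.999).

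Of 16 tested genes in a list for epithelial ion and water transport, 10 were higher in both MAdCAM1 libraries and 0 were lower (against 19.7% and 18.7% of all tested genes). The list's log2 fold changes had a median of 0.71. Whether cyclic GMP acted on these genes was not tested. The quasi-likelihood test called none of the 16 genes, with 5 at an unadjusted p under 0.05. Of all tested genes, 5.09% were higher and 1.82% lower at that limit. Calls by the exact test and by DESeq2, which called 1.06% and 1.53% of all tested genes as higher, numbered 3 each, namely the anion exchanger gene Slc26a3, the water channel gene Aqp8 and Best2, an anion channel gene of goblet cells. Slc26a3 and Aqp8 also stand in the colonocyte list, so their calls are counted there too. Of the list's other genes, Clca1 also stands in the goblet list and Slc12a2 in the stem list. Both were scarce in IgG 1 and 2, with 35 and 8 tags for Slc26a3 and 8 and 1 tags for Aqp8. Best2 stood at 21.2 and 24.9 CPM in MAdCAM1, against 4.61 and 1.18 CPM in IgG tumours (log2 fold change 2.99, SE 0.70). Slc9a2, a sodium and proton exchanger gene, stood at 29.8 and 28.1 against 16.3 and 10.3 CPM. Among basolateral genes of chloride secretion, the cotransporter gene Slc12a2 overlapped (325 and 239 against 270 and 160 CPM). The potassium channel genes Kcnq1 (103 and 55.9 against 86.3 and 84.2 CPM) and Kcne3 (340 and 155 against 193 and 239 CPM) overlapped too. Another potassium channel gene, Kcnn4, was higher in both MAdCAM1 libraries, at 43.8 and 45.2 against 37.0 and 14.7 CPM. The transport median was 1.37 without IgG 1 and 0.31 without IgG 2.

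**Figure D4:**
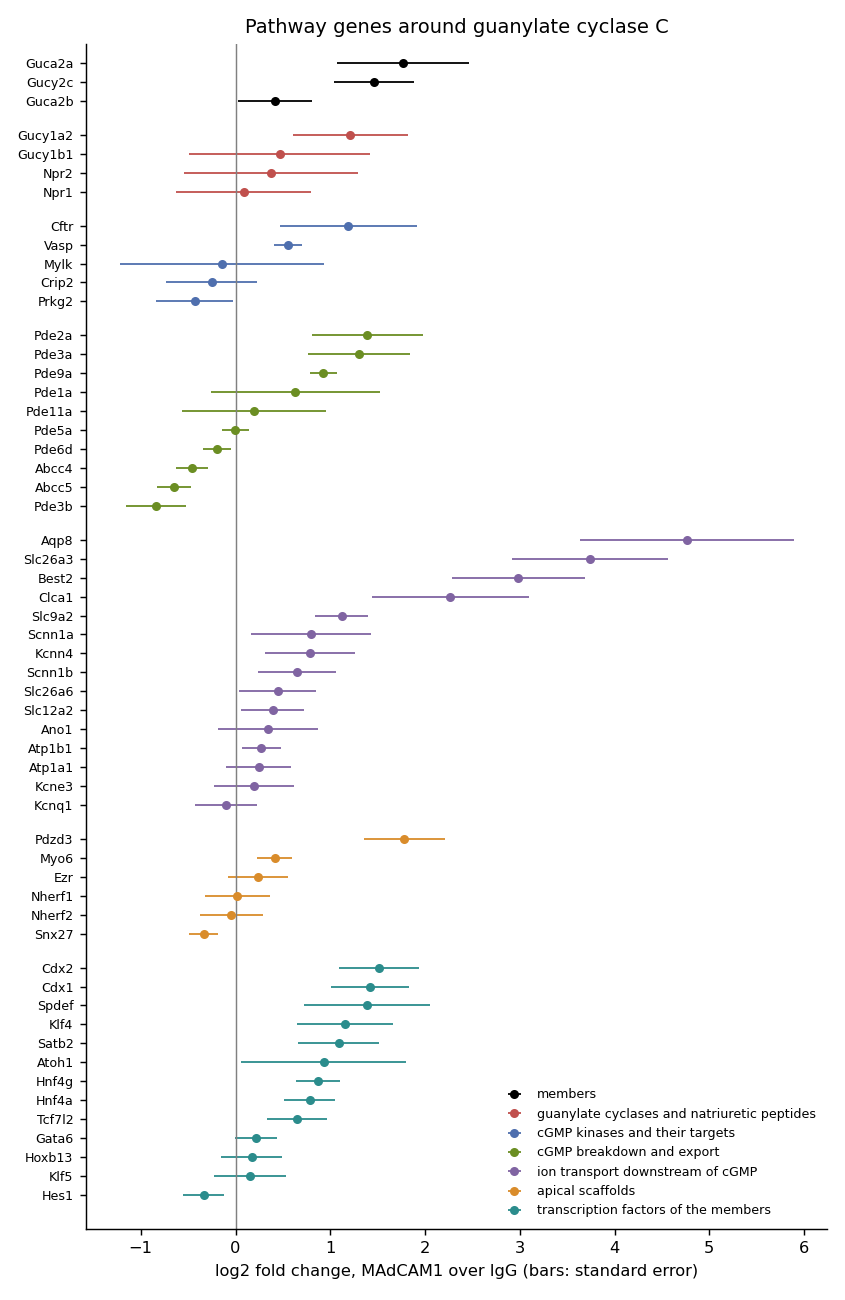
Log2 fold change, MAdCAM1 over IgG, of the 3 genes and of each tested gene of the 6 pathway lists, with bars for the standard error (n = 2 libraries per group); colours mark the lists, and Cftr is drawn once although 2 lists hold it. Guca2a and Gucy2c, at 1.77 and 1.46, lie among the upper transport genes, Guca2b lies at 0.41, and genes of cyclic GMP removal lie on both sides of 0.

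Of 6 tested genes for apical scaffolds, which tether the receptor, CFTR and sodium exchangers, 2 were higher in both MAdCAM1 libraries and 1 lower in both, against 19.7% and 18.7% of all tested genes. Pdzd3, a PDZ protein that binds guanylate cyclase C, stood at 2.87 and 4.08 CPM in MAdCAM1, against 1.08 and 0.928 CPM in IgG tumours (log2 fold change 1.78, SE 0.43; edgeR adjusted p = 0.671). Its levels rest on few tags, 41 and 63 in MAdCAM1 1 and 2, against 19 and 15 in IgG 1 and 2. Nherf1 overlapped at 79.8 and 126 against 124 and 79.3 CPM.

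Among 13 genes of transcription factors that act on the 3 genes or in the cells that make them, 8 were higher in both MAdCAM1 libraries and 0 lower, where 19.7% and 18.7% of all tested genes were. The median of the log2 fold changes was 0.87. None was called by any of the 4 tools, and 4 had an unadjusted quasi-likelihood p under 0.05. Of all tested genes, 5.09% were higher and 1.82% lower at that limit. Cdx2, an intestinal homeobox factor known to bind the Gucy2c promoter, stood at 16.9 and 9.52 CPM in MAdCAM1, against 5.52 and 3.71 CPM in IgG tumours (log2 fold change 1.51, SE 0.42; edgeR adjusted p = 0.691). Its relative Cdx1 stood at 91.6 and 99.7 against 49.2 and 22.5 CPM, and Hnf4a, a nuclear receptor of gut epithelium, at 236 and 254 against 175 and 110 CPM. The goblet cell factor genes Atoh1 (47.7 and 28.0 against 33.7 and 5.999 CPM) and Spdef (17.1 and 10.4 against 8.02 and 2.47 CPM) were lowest in IgG 2, the library in which Guca2a, Guca2b and Gucy2c were also lowest.

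The genes whose levels across the 4 libraries were most like each of the 3 were ranked by the root mean square difference of mean-centred log2 levels, over 13983 genes with a mean of at least 1 CPM over the 4 libraries. Nearest to Gucy2c came Agpat4, an acyltransferase gene, then Nr3c2, the mineralocorticoid receptor gene, Ppp1r14d, Cdx1 and Tmc5, at differences of 0.0124 to 0.0517. Nr3c2, for example, stood at 70.0 and 69.7 CPM in MAdCAM1, against 34.4 and 16.1 CPM in IgG tumours. Nearest to Guca2a were C2cd4a, Aspg, Elapor1, Npy1r and Selenbp1, at 0.0928 to 0.247, and 2 of these, C2cd4a and Npy1r, had under 4 CPM in every library, C2cd4a with 0.740 and 0 CPM in IgG 1 and 2. Nearest to Guca2b were Ppfia3, the mast cell protease gene Mcpt1, Lgals12, the nuclear RNA Neat1 and an unnamed gene with nearly the levels of Neat1, at 0.0422 to 0.0544. Gucy2c was number 91 in likeness to Guca2a and Guca2b number 594. The ranks were not the same in reverse. For likeness to Guca2b, Guca2a was number 12277 and Gucy2c number 10709 of the 13983 genes. The measure depends on how widely a gene ranged as well as on its direction, so a low place does not mean opposite movement. Guca2a and Guca2b were both highest in MAdCAM1 1 and lowest in IgG 2, at 419 and 44.9 CPM for Guca2a and 43.9 and 19.4 CPM for Guca2b. For likeness to Gucy2c, Guca2a was number 528 and Guca2b number 1036.

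Of the other genes next to the 3 loci, 1 separated the groups, upwards. Of all tested genes, 19.7% separated them upwards and 18.7% downwards. Foxj3, 8570 bases from Guca2a, overlapped at 39.0 and 29.9 CPM in MAdCAM1 and 30.9 and 32.3 CPM in IgG tumours, and Hivep3, 74829 bases beyond Guca2b, at 4.90 and 5.12 against 6.66 and 2.91 CPM. Plbd1, 34932 bases from Gucy2c, was higher in both MAdCAM1 libraries, at 56.9 and 73.0 against 35.7 and 47.8 CPM (log2 fold change 0.64, SE 0.23; edgeR adjusted p = 0.718), and the histone gene H4f16 on the other side overlapped at 1189 and 779 against 729 and 942 CPM.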

How the data were processed

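Per the labels' protocols, tumour RNA of integrity number above 7.0 was made into cap-trapped, random-primed CAGE libraries and read as single ends of 75 nt. Per the submitters' processing notes, tags were mapped to GRCm39 with BWA 0.7.17 and HISAT2 2.0.5. Per the labels, clusters under 0.1 CPM, at an irreproducible discovery rate of 0.1 or more, or over 200 bp were discarded. The step from clusters to genes is not given in the sources used here. The deposited values are raw tag counts per gene, whole numbers that were used as the authors gave them.

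Genes were filtered with filterByExpr, scaled by TMM (factors 0.962, 0.972, 1.04 and 1.03 for MAdCAM1 1, MAdCAM1 2, IgG 1 and IgG 2) and tested with the robust quasi-likelihood F test of edgeR 4.0.16 (R 4.3.3), with Benjamini-Hochberg adjustment over all genes and a threshold of 0.05. The common biological variation came to a coefficient of 0.322. Other settings tried were scaling by RLE, by upper quartile or by library size alone, testing without a filter or with at least 1 CPM in 2 libraries, DESeq2 1.42.0, limma-voom (limma 3.58.1), edgeR's exact test, a replicate block and leaving out each library. Ratios used tags with 0.5 added, and likeness used log2 of CPM plus 0.5. All 4 tests were tested on simulated counts. The 3 genes and the lists were chosen with earlier results of these data known. Named were the 3 genes, genes of the pathway lists, up to 4 abundant genes per marker list, the nearest genes on either side and the 5 most alike genes. Older symbols were matched through RefSeq (Nherf1 is listed as Slc9a3r1). This step matched Il25 of the tuft list to another gene, Mydgf, which still counts in the list medians compared below. No column was left out. Some transcription factor genes are not reported here. The labels do not state how the mice were housed or paired, so p-values measure the spread between these libraries.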

Additional observations from a re-analysis of the deposited data

How the results depend on the processing

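The 3 genes kept their direction and missed the adjusted p threshold under every alternative run. Leaving out each library in turn gave log2 fold changes of 1.06 to 2.73 for Guca2a, 0.03 to 0.91 for Guca2b and 0.99 to 2.14 for Gucy2c. Over all genes, DESeq2 called 219 higher and 20 lower and the exact test 152 higher and 9 lower, against 0 in each direction by the quasi-likelihood test, whose count stayed at 0 with each library left out (0 to 0) and under the other settings; the cause was not tested.

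The difference in Guca2a tags per Gucy2c tag ran from −0.31 (without MAdCAM1 1, reversed) to 0.86 with 1 library left out; that in Guca2b tags per Gucy2c tag ran from −1.40 to −0.84, and that in Guca2a tags per Guca2b tag from 1.06 to 1.74. Constants of 0 and 5 in place of 0.5 changed no direction. Per goblet tag in place of per epithelial tag, the log2 differences were −0.30 for Guca2a, −1.70 for Guca2b and −0.58 for Gucy2c, and per colonocyte tag 0.37, −1.03 and 0.092 in that order of genes; the cause was not tested.

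Same-numbered libraries come from different mice and their deviations correlated at −0.15 across genes. A replicate block gave log2 fold changes of 1.85, 0.45 and 1.57 for Guca2a, Guca2b and Gucy2c and changed no call; for the ratios it gives the same means by construction. Crossed pairing of the numbers, chosen after seeing the data, called 0 genes. Scaling by library size alone moved the median of all genes to −0.0985. Of 57 list medians under other scalings 56 stayed within the replicate spread, and of 76 with 1 library left out 51 did. Depth bears mainly on scarce pathway genes, such as Gucy1a2 with 20 to 61 tags per library, while each of the 3 genes had at least 313.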
